A study of Mus musculus with 20 samples.

Results

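The AMPA receptor subunit genes *Gria1*, *Gria2*, *Gria3* and *Gria4* were followed in the mouse cochlea before and after the onset of hearing. They were chosen by name as the complete set of genes that encode the pore-forming subunits GluR1 to GluR4, and are 4 of the 24411 genes in the tables. AMPA receptors are tetramers of these subunits that open when glutamate binds. Inner hair cells release glutamate onto the afferent terminals of spiral ganglion neurons, where AMPA receptors carry the fast synaptic response. Subunit composition sets how fast the channel closes and whether it passes calcium, which receptors that contain edited GluR2 largely do not.

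The study used *Bai1* tm2b mice on the C57BL/6N background, of both sexes. In the tm2b allele exons 3 and 4 of *Adgrb1*, the gene of the adhesion receptor BAI1, are replaced by a lacZ cassette, and a short isoform of the gene remains. Littermate *Bai1* tm2b/+ mice, which carry 1 copy of this allele, served as controls for *Bai1* tm2b/tm2b mice, and no wild-type library was included. They are called controls and homozygotes here. Sensory epithelium and spiral ganglion neurons of the apical coil were dissected together, and each of the 20 libraries came from a pool of 4 mice. At P22 there were 3 libraries of each genotype, as estimated counts. At P7 there were 7 of each genotype, of which replicates 5 to 7 were estimated counts and replicates 1 to 4 were TPM (a level per transcript length, scaled to the same total in each library) rounded to whole numbers.

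The 12 libraries in counts held between 31108551 and 58807173 counts in total. Depth is unknown for the 8 libraries in rounded TPM, where a subunit at 5 TPM can move only in steps of 1. The labels put the P22 libraries in 1 batch and the P7 libraries in another pair of batches, so age and batch cannot be told apart. In bulk tissue, fewer neurons and less RNA per neuron cannot be told apart either. Since libraries are pools, p values describe the spread between pools. *Adgrb1*, counted over all isoforms, was lower in homozygotes at P22 (log2 fold change -0.61, adjusted p = 0.000602, edgeR) and overlapped between genotypes in the P7 rounded TPM set. In the P7 counts it was lower in every homozygous than in every control library, at a log2 difference of -0.64 that did not pass (adjusted p = 0.894, edgeR). The deletion of exons 3 and 4 is not visible in a value per gene. All 20 markers of spiral ganglion neurons that were looked at, such as *Tubb3* and *Nefl*, were above 0 in each of the 20 libraries.

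The genes lie on different chromosomes of GRCm38 (mm10, GENCODE M21). *Gria1* (ENSMUSG00000020524.16) is at chr11:57011387-57330244 on the plus strand, with 6043 bp of merged exons. *Gria2* (ENSMUSG00000033981.14) is at chr3:80681450-80802835 on the minus strand, with 15548 bp. *Gria3* (ENSMUSG00000001986.16) is at chrX:41400854-41678601 on the plus strand, with 9859 bp. *Gria4* (ENSMUSG00000025892.16) is at chr9:4417896-4796234 on the minus strand, with 6305 bp. Because *Gria2* has far longer exons than *Gria1*, equal counts stand for less *Gria2* mRNA, and levels are compared between subunits only per kb of merged exons. Small miRNA genes on the same strand overlap less than 1% of the exon bases of *Gria2*, *Gria3* and *Gria4*.

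The part of the coding sequence for which the family is best known is the pore loop. The windows of 30 bases shown here, from the GENCODE M21 transcripts, run 5′ to 3′ with the codon of the Q/R site in capitals. They are shown because this codon decides calcium entry through the channel once the *Gria2* mRNA has been edited.
Gria1: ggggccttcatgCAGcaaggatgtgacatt
Gria2: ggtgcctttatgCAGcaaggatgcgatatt
Gria3: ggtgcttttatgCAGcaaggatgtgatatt
Gria4: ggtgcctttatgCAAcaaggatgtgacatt
The codon is number 600 in *Gria1*, 607 in *Gria2*, 612 in *Gria3* and 608 in *Gria4*, counted from the start codon, and in the genome it reads as glutamine in all 4. The windows share between 26 and 28 of 30 bases in each pair of genes. In *Gria2* RNA the glutamine codon is edited to one for arginine by the product of *Adarb1*. Values per gene do not show editing, which was not measured here.

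Between P7 and P22 the AMPA subunit mRNAs moved apart. *Gria3* and *Gria4*, the subunits with the highest level per kb at both ages, rose 3.23-fold and 2.58-fold. *Gria2* rose 1.69-fold, and *Gria1* fell to 0.637 of its P7 level. The rises, unlike the fall, did not hold when libraries were scaled to neuron markers. Values for this comparison are CPM (counts scaled for library size, not for gene length) after TMM scaling of the 12 count libraries together, and log2 fold changes are P22 over P7 averaged over genotypes. They come from the quasi-likelihood test of edgeR on 16314 genes, with p adjusted by Benjamini and Hochberg's method. To be called, a gene needed an adjusted p under 0.05, a change of more than 0.5 on the log2 scale and a standard error below 0.5.

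*Gria3*, which encodes GluR3, had 26.9, 37.8 and 30.7 CPM in the controls and 33.0, 25.2 and 34.2 CPM in the homozygous libraries at P7. At P22 it had 113, 103 and 129 CPM in controls and 87.1, 88.2 and 91.7 CPM in homozygotes. Every P22 library was above every P7 library, as for 30.6% of all genes. In log2 units the rise was 1.69, with a standard error of 0.0964 (adjusted p = 4.31e-09, edgeR).

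*Gria4*, which encodes GluR4, a subunit of rapidly closing receptors in auditory neurons, had 29.0, 51.9 and 36.5 CPM in controls and 34.9, 41.7 and 54.5 CPM in homozygotes at P7. At P22 it had 116, 108 and 128 CPM in controls and 97.0, 96.9 and 98.8 CPM in homozygotes. The ages again did not overlap, and the spread between libraries was wider at P7. On the log2 scale the rise was 1.37 (standard error 0.134, adjusted p = 7.41e-07, edgeR).

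*Gria2*, which encodes GluR2, had 12.4, 17.5 and 12.6 CPM in controls and 27.4, 18.0 and 22.3 CPM in homozygotes at P7. At P22 it had 35.4, 31.1 and 34.3 CPM in controls and 26.9, 28.6 and 26.3 CPM in homozygotes. The highest P7 library, homozygous replicate 5, lay within the range of the P22 homozygous libraries. The rise was 0.76 in log2 units (standard error 0.108, adjusted p = 2.82e-05, edgeR).

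*Gria1*, which encodes GluR1, had 9.40, 13.9 and 10.1 CPM in controls and 14.2, 10.03 and 16.5 CPM in homozygotes at P7. At P22 it had 5.95, 6.38 and 6.69 CPM in controls and 10.6, 12.4 and 6.20 CPM in homozygotes. The ages did not overlap in controls and overlapped in homozygotes. The log2 difference was -0.65 (standard error 0.173, adjusted p = 0.00385, edgeR).

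**Figure D1:**
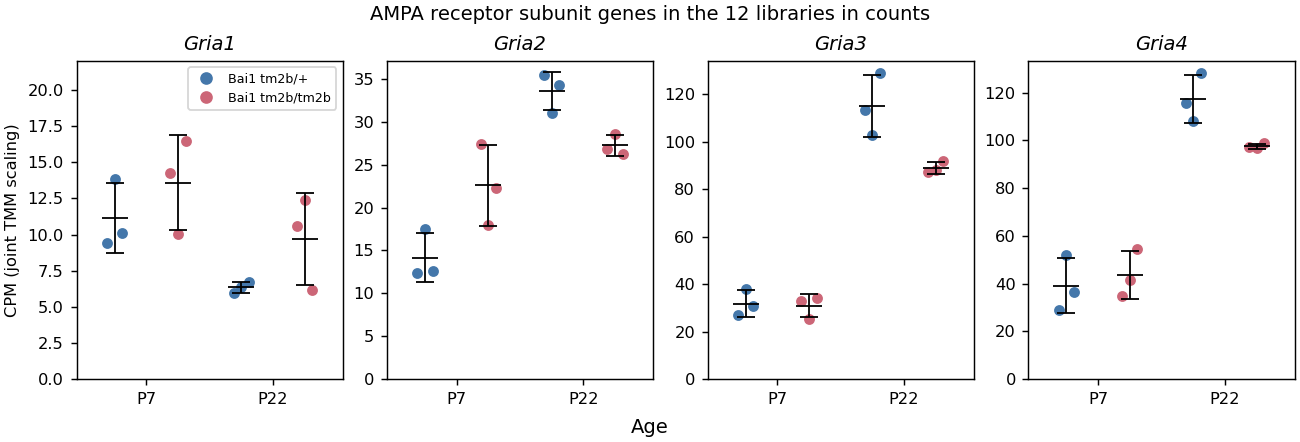
CPM (joint TMM scaling, linear axes from 0) of each AMPA subunit gene in the 12 count libraries by age, with points for single libraries, coloured by genotype, and bars for the mean and SD (n = 3). *Gria3* and *Gria4* stand between 87.1 and 129 CPM at P22 and between 25.2 and 54.5 CPM at P7, whereas *Gria1* does not rise. The rises of the other 3 do not hold when libraries are scaled to neuron markers.

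All 4 subunit genes were thus called, 3 higher and 1 lower, where 54.6% of all genes tested were called (25.9% higher and 28.7% lower). The median log2 fold change of the 4 was 1.06, against -0.05 for all genes. The spiral ganglion neuron markers rose beside them, 19 of 20 with an adjusted p under 0.05 and a median of 1.60, and their part in the rise of the subunits was not tested. When libraries were scaled to these markers in place of all genes, which shifted the median of all genes to -1.94, *Gria2* was -1.12 (adjusted p = 1.19e-06, edgeR), *Gria3* -0.18 (adjusted p = 0.222) and *Gria4* -0.46 (adjusted p = 0.000863). The rises of these 3 genes therefore did not hold with this scaling, *Gria2* and *Gria4* turning lower and *Gria3* showing no clear change. *Gria1* stayed lower. Since the markers themselves rose with age, these values compare the subunits only with the markers.

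In controls alone, the log2 fold change was -0.81 for *Gria1*, 1.24 for *Gria2*, 1.85 for *Gria3* and 1.58 for *Gria4*, all called. In homozygotes it was 1.53 for *Gria3* and 1.16 for *Gria4*, both called, while *Gria1* (-0.49, adjusted p = 0.0891, edgeR) and *Gria2* (0.27, adjusted p = 0.130, edgeR) missed the threshold. The background was 51.8% of genes called in controls and 49.3% in homozygotes. Without homozygous replicate 5 at P7, *Gria2* in these mice was 0.43 (adjusted p = 0.0195). *Gria1* in these mice was -0.66 (adjusted p = 0.0292) without replicate 6 at P7 and -0.69 (adjusted p = 0.0342) without replicate 2 at P22. The genotype difference at P22 minus that at P7 was -0.97 for *Gria2* (standard error 0.216, unadjusted p = 0.000683, adjusted p = 0.176, edgeR), which did not pass, and between -0.42 and 0.33 for the other 3. In this interaction 0.0306% of all genes were called, and DESeq2 gave *Gria2* -1.01 (adjusted p = 0.00366).

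Per kb of merged exons, the composition of the summed AMPA subunit mRNA changed as well. *Gria1* made up 15.7% of the sum at P7 and 4.46% at P22, and *Gria2* 9.11% and 6.38%. *Gria3* went from 24.8% to 33.6% and *Gria4* from 50.4% to 55.6% (means over 6 libraries at each age). The size of the *Gria2* share depends on length, since with coding length it was 14.99% at P7 and 12.5% at P22 in controls and 20.8% and 12.3% in homozygotes. The sum itself, in CPM per kb, was between 9.68 and 16.3 at P7 and between 27.7 and 36.7 at P22.

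The difference of P22 minus P7 was -11.3 percentage points for *Gria1*, -2.72 for *Gria2* and 8.83 for *Gria3* (exact permutation tests within genotype, 2-sided, p = 0.005 each, the smallest that 400 arrangements can give). It was 5.16 for *Gria4* (exact permutation test, p = 0.01). Shares sum to 100%, so these 4 tests are not independent. The change of the *Gria2* share was -1.06 points in controls and -4.39 in homozygotes. With the length of the longest coding transcript, the coding length or no length correction, *Gria4* kept its direction (2.22, 3.41 and 3.48 points) but not a p under 0.05.

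**Figure D2:**
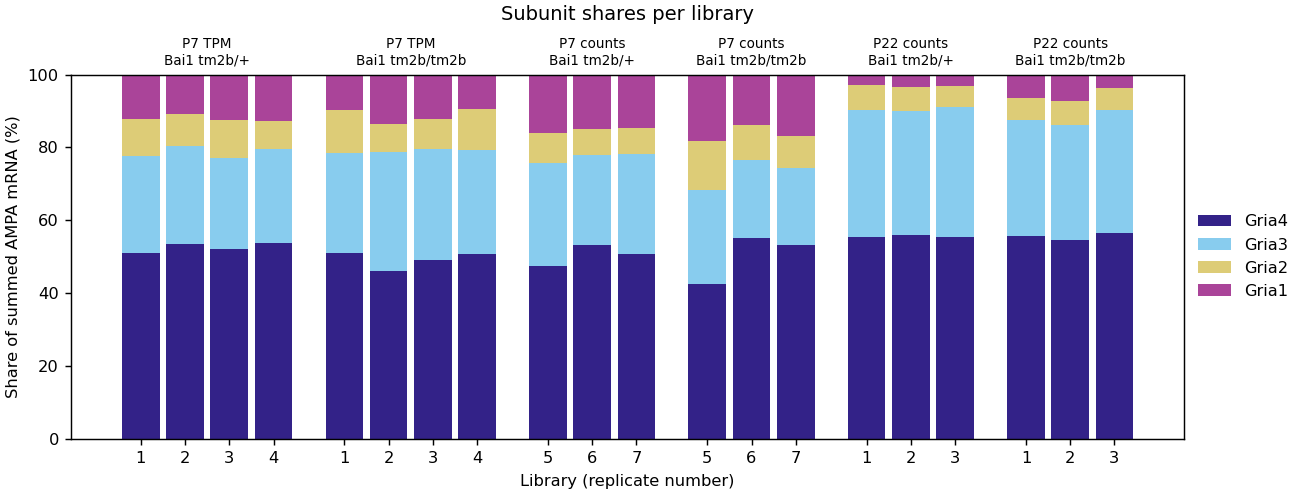
Share of each subunit gene in the summed AMPA mRNA (%, linear axis) in all 20 libraries, from CPM per kb of merged exons in counts and from TPM as deposited in rounded TPM, with 1 bar for each library under its replicate number. *Gria4* is the widest band in every library, and *Gria1* narrows from between 13.8% and 18.1% in the P7 count libraries to between 2.98% and 7.26% at P22.

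The order of levels per kb in controls was *Gria4*, *Gria3*, *Gria1* and *Gria2* at P7 and *Gria4*, *Gria3*, *Gria2* and *Gria1* at P22. At P7 *Gria1* exceeded *Gria2* 2.02-fold (between 1.96-fold and 2.06-fold in the 3 libraries), and at P22 *Gria2* exceeded *Gria1* 2.06-fold (between 1.89-fold and 2.31-fold). *Gria4* exceeded *Gria3* 1.93-fold at P7 and 1.59-fold at P22, without overlap of their ranges. In homozygotes at P7 the ranges of *Gria3* and *Gria1* and those of *Gria1* and *Gria2* overlapped, but within each of the 3 libraries the order was that of controls. At P22 *Gria2* exceeded *Gria1* in 1 of 3 homozygous libraries. These ranks depend on length. In P22 controls *Gria3* and *Gria4* had 46.0% and 44.9% of the sum with the longest coding transcript, and 42.5% and 42.7% with coding length. In the same way, at P7 with coding length *Gria2* had the higher mean share (14.99% against 11.5% in controls).

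In the P7 libraries in rounded TPM, which the authors had already corrected for length, the mean shares in controls were 12.1% for *Gria1*, 9.31% for *Gria2*, 26.0% for *Gria3* and 52.6% for *Gria4*. The P7 count libraries of this genotype gave 15.2%, 7.53%, 26.8% and 50.5%. *Gria1* and *Gria2*, at between 3 and 7 TPM, overlapped in their ranges in the rounded set. *Gria1* was the higher of them in 4 of 4 control and in 2 of 4 homozygous libraries.

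At P22 *Gria2*, *Gria3* and *Gria4* were modestly lower in homozygotes than in controls, at between 0.778 and 0.836 of the control level, and *Gria1* was at 1.54 of it with a wide spread. CPM in the genotype comparisons are scaled by TMM within each set of libraries, and log2 fold changes are homozygotes over controls. *Gria2* had 32.0, 28.0 and 31.0 CPM in controls and 24.3, 25.9 and 23.9 CPM in homozygotes. *Gria3* had 102.5, 92.6 and 116 CPM against 78.8, 79.9 and 83.5 CPM. *Gria4* had 105, 97.3 and 116 CPM against 87.8, 87.8 and 90.0 CPM.

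The genotypes did not overlap for these 3 genes, as for 17.9% of all genes in this direction. The log2 fold change was -0.30 for *Gria2* (standard error 0.0769, adjusted p = 0.0329, edgeR), -0.36 for *Gria3* (standard error 0.0795, adjusted p = 0.0167) and -0.26 for *Gria4* (standard error 0.0685, adjusted p = 0.0352). An adjusted p under 0.05 with a lower value was reached by 7.28% of all genes. None of the 4 subunit genes passed the limit of 0.5 as well, so 0 of 4 were called, against 3.15% of all genes (487 of 15443). The median of the 4 was -0.28, against 0.01 for all genes.

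These adjusted p values sat near the threshold. *Gria2* missed it without control replicate 1 or 3 or homozygous replicate 1 or 3 (0.137 at most), *Gria3* without control replicate 1 or homozygous replicate 2 (0.0593 at most), and *Gria4* without any library but control replicate 2 (0.105 at most), while all 3 stayed below 0. The neuron markers were lower too, 10 of 20 with an adjusted p under 0.05 and a median of -0.26, and their summed level was 15520 to 17690 CPM in controls and 11890 to 13340 CPM in homozygotes. Scaling to these markers shifted the median of all genes to 0.27. *Gria2* was then -0.04 (adjusted p = 0.732, edgeR), *Gria3* -0.10 (adjusted p = 0.237) and *Gria4* 0.00 (adjusted p = 0.999). As the markers were themselves lower in homozygotes, this scaling cannot tell neuron content from a change within neurons.

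*Gria1* had 5.38, 5.74 and 6.04 CPM in controls and 9.60, 11.2 and 5.64 CPM in homozygous libraries at P22. Replicates 1 and 2 of homozygotes were high and replicate 3 lay within the control range. The log2 fold change was 0.62 (95% interval 0.15 to 1.10, adjusted p = 0.0832, edgeR), which did not pass. It passed with DESeq2 (0.62, adjusted p = 0.0240), with scaling to the neuron markers (0.88, adjusted p = 0.0165) and without replicate 3 of homozygotes (0.86, adjusted p = 0.00746).

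The same pair of libraries was highest for markers of central glia. The summed level of these 10 markers was 1473, 1774 and 1246 CPM in homozygous replicates 1 to 3 and 962.7 to 1085 CPM in controls, and 5 of 10 were called higher, beside 1.74% of all genes. *Olig2*, a transcription factor of oligodendrocyte lineage cells, had 13.97, 13.6 and 7.09 CPM in homozygotes and 5.41, 7.21 and 6.55 CPM in controls. Replicate 3 was not within the control range for every marker. All homozygous libraries were above all controls for *Gfap* (at least 382 against at most 322 CPM), *Mobp* (242 against 200), *Mog* (82.5 against 75.5) and *Olig1* (37.1 against 36.5). *Olig2*, *Aqp4*, *Slc1a2*, *Aldh1l1*, *Opalin* and *Sox10* overlapped between genotypes. The part of these cells in the *Gria1* level was not tested.

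As a share of AMPA mRNA at P22, *Gria1* was 3.15% in controls and 5.76% in homozygotes, without overlap (exact permutation test, p = 0.1, the smallest that 3 pools against 3 allow). *Gria3* was 34.8% and 32.4%, also without overlap (exact permutation test, p = 0.1). *Gria2* (6.47% and 6.29%) and *Gria4* (55.6% and 55.5%) overlapped. The summed level of the 4 genes differed by -0.26 on the log2 scale (exact permutation test, p = 0.1), and its ratio to the neuron markers by 0.00 (exact permutation test, p = 1.0).

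In the P7 count libraries the subunit that stood out was *Gria2*. It had 13.7, 19.0 and 13.8 CPM in controls and 31.4, 19.8 and 24.5 CPM in homozygotes, so that the genotypes did not overlap, as for 5.76% of all genes with a higher value in homozygotes. The log2 fold change was 0.70 (95% interval 0.23 to 1.17, unadjusted p = 0.00953, adjusted p = 0.894, edgeR), which did not pass. As a share of AMPA mRNA it was 7.53% and 10.7%, without overlap (exact permutation test, p = 0.1). The summed level of the 4 genes differed by 0.19 on the log2 scale, with overlap (exact permutation test, p = 0.4). Of the 20 neuron markers, 16 were lower in homozygotes with none called. Against the 19 of these markers used for the P7 counts, the sum differed by 0.42 without overlap (exact permutation test, p = 0.1). In the rounded TPM set, with all 20 markers, the difference was -0.16 (exact permutation test, p = 0.257). There the markers were TMM scaled and the sum was not, so that value is not on a single scale. In the P7 counts the edgeR test called 0 of 16026 genes (0%), with 763 (4.76%) at an unadjusted p under 0.05, and DESeq2 called 48.

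*Gria1* had 10.4, 15.1 and 11.1 CPM in controls and 16.3, 11.04 and 18.1 CPM in homozygotes at P7, a log2 fold change of 0.31 (95% interval -0.20 to 0.83). *Gria3* (-0.02, interval -0.40 to 0.36) and *Gria4* (0.18, interval -0.36 to 0.71) overlapped between genotypes too. These intervals do not show that the genotypes were alike, and *Gria3* turned to 0.23 with scaling to neuron markers. Control replicate 6 was the highest control for all 4 genes.

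Brain neuron markers also differed between these libraries. Of 15 tested, 13 were higher in homozygotes, with a median difference of 0.63 in log2 units and none called. *Neurod2*, a transcription factor of cerebellar and cortical neurons, had 25, 47 and 13 counts in controls and 61, 189 and 306 counts in homozygotes. *Gabra6*, a receptor subunit of cerebellar granule cells, had too few counts to be tested, with 0 in all 3 controls and 8, 5 and 8 in homozygous libraries. The summed level of the 16 listed markers overlapped between genotypes, at 428 to 510.4 CPM in controls and 506.7 to 582.7 CPM in homozygotes. Among the homozygous libraries, *Gria2* was highest in replicate 5, *Neurod2* in replicate 7 and the summed brain neuron markers in replicate 6. The part of such cells in the *Gria2* level was not tested.

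The rounded TPM set did not show the *Gria2* difference. *Gria2* had 5, 5, 5 and 3 TPM in controls and 6, 4, 4 and 7 TPM in homozygous libraries (exact permutation test, p = 0.6), and its mean of 4.88 TPM was below the minimum of 5 TPM for the fit across genes. *Gria1* had 6, 6, 6 and 5 against 5, 7, 6 and 6 TPM (exact permutation test, p = 1.0). Rounding limits what can be seen at these levels. The rounded TPM and count sets, with 4 and 3 pools of each genotype, also match the study's P7 batches in size. Units and batch therefore cannot be told apart between these sets.

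*Gria3* in this set had 13, 15, 12 and 10 TPM in controls and 14, 17, 15 and 18 TPM in homozygotes, a log2 difference of 0.24 (adjusted p = 0.119, limma) that was -0.07 with scaling to neuron markers. *Gria4* had 25, 30, 25 and 21 against 26, 24, 24 and 32 TPM, a log2 fold change of -0.04 (adjusted p = 0.807, limma) that was 0.068 without TMM scaling. Of the 3 subunit genes tested 0 were called, against 0.809% of all genes. The share of *Gria3* was 26.0% and 29.8% and that of *Gria4* 52.6% and 49.2%, each without overlap (exact permutation tests, p = 0.0286, the smallest that 4 pools against 4 allow, among 12 share tests). In the P7 count libraries the *Gria3* share moved the other way, from 26.8% to 22.8% (exact permutation test, p = 0.2).

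**Figure D3:**
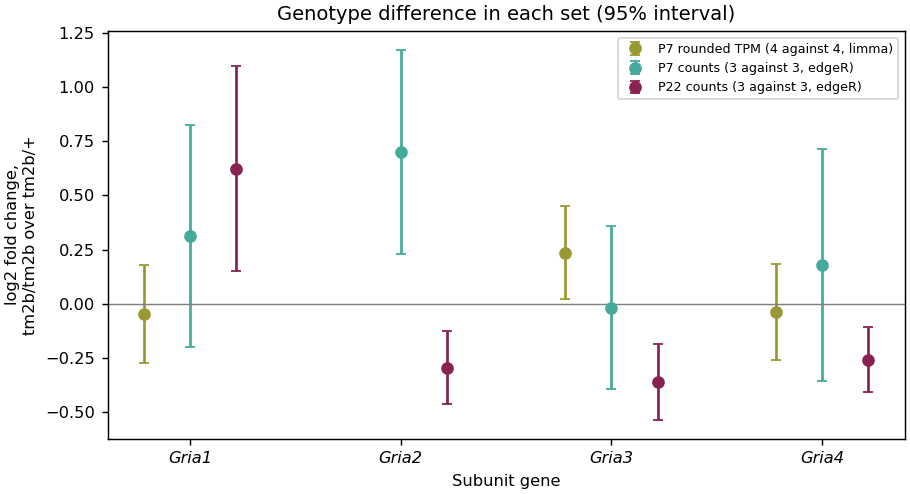
Log2 fold change of homozygotes over controls for each subunit gene in the 3 sets of libraries, with 95% intervals from edgeR (counts) or limma (rounded TPM, after adding 1). *Gria2* is at 0.70 in the P7 counts and at -0.30 at P22, and has no value in the rounded TPM set, where its mean was under 5 TPM.

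Partner genes of AMPA receptors moved in both directions with age. They comprised 36 genes for auxiliary subunits, assembly factors and scaffolds. Of these, 17 were higher and 14 lower at P22 with an adjusted p under 0.05 (edgeR), beside 38.2% and 42% of all genes. With the call rule, 16 of 36 were higher, beside 25.9% of all genes, and 9 lower, beside 28.7%. The median was 0.08, against -0.05 for all genes. *Cacng2*, which encodes the auxiliary subunit stargazin, rose from 4.41 to 38.9 CPM in control means, and *Cacng7*, of the same family, from 19.5 to 63.7 CPM. *Cacng4* fell from 16.9 to 4.67 CPM and *Gsg1l*, another auxiliary subunit, from 11.3 to 1.08 CPM.

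Among genes that act on the receptor or hold it in place, *Nsf*, an ATPase that binds GluR2, rose by 2.84 on the log2 scale. *Adarb1*, the RNA editing enzyme, rose by 3.06, from 70.2 to 600.6 CPM in control means. The scaffold genes *Dlg4* (PSD-95) and *Shank1* rose by 0.99 and 1.99, while *Homer1* was at -0.01 (adjusted p = 0.904, edgeR). These directions were not recomputed with scaling to neuron markers, which moved the median of all genes to -1.94, so a rise smaller than that shift may not hold there.

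By genotype at P22, 6 of 35 partner genes were lower and 1 higher with an adjusted p under 0.05 (edgeR), beside 7.28% and 5.04% of all genes, and the median was -0.12. Of these only *Cacng2* was called, in a direction that 1.41% of all genes took. Its level was 35.1 ± 4.16 CPM (SD, n = 3) in controls and 22.2 ± 1.12 CPM (SD, n = 3) in homozygotes (log2 fold change -0.66, adjusted p = 0.00303, edgeR). The neuron markers, with a median of -0.26 and 10 of 20 lower, moved with these genes, and their part was not tested. In the P7 rounded TPM set *Shank1* was called higher, as were 0.656% of all genes (0.59, adjusted p = 0.0436, limma) and no other partner gene was. Here 958 genes had an adjusted p under 0.05 and the smallest was 0.0436 (limma), so that value does not set *Shank1* apart. No gene of this set, *Shank1* included, was called with a minimum mean of 1 TPM, with no filter, with the replicate block, or without control replicate 2, 3 or 4 or homozygous replicate 2, 3 or 4. In the P7 count libraries 0 of 36 passed by edgeR, with 3 at an unadjusted p under 0.05.

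The other ionotropic glutamate receptor genes, such as those of NMDA and kainate receptors, gave a median of -0.47 with age, with 3 of 14 higher and 7 lower at an adjusted p under 0.05, beside 38.2% and 42% of all genes. *Grin1*, the obligatory NMDA receptor subunit, rose by 3.44 (adjusted p = 6.49e-09, edgeR). *Grin2a* had 0 counts in all 6 P22 libraries and between 15 and 40 at P7, and the median does not depend on how far below it this gene lies. By genotype at P22 only *Grin2d*, of 12 tested, was lower with an adjusted p under 0.05, as were 7.28% of all genes (-0.37, adjusted p = 0.0462, edgeR), and it was not called.

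**Figure D4:**
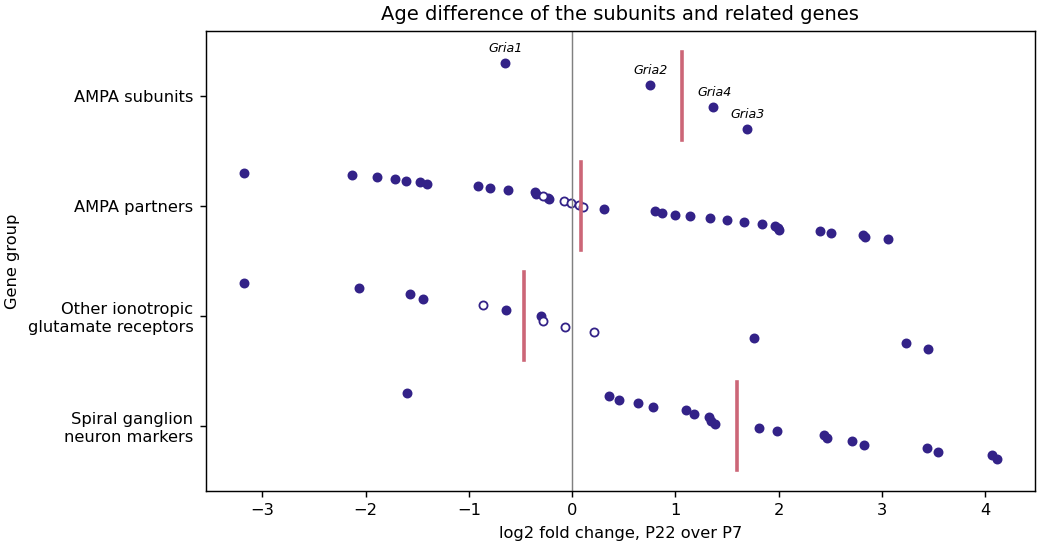
Log2 fold change of P22 over P7 (linear axis, 12 count libraries) for single genes of 4 groups, filled where the adjusted p is under 0.05 and open where it is not, with a vertical bar at the median of each group. The medians are 1.06 for the AMPA subunits, 0.08 for their partners, -0.47 for the other receptors and 1.60 for the neuron markers. *Grin2a*, which had no counts at P22, is counted in its median but not drawn. The subunits' rises do not hold with scaling to neuron markers.

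The genes whose profiles over the 12 count libraries came nearest to each subunit were found by the root mean square difference of log2 CPM centred on each gene. For *Gria3* these were *Micu3*, *Prkcb* and *Luzp1* (0.0872 to 0.0910), and for *Gria4* *Ntm*, *Sybu* and *Ctnna2* (0.0986 to 0.112). *Gria2* had *Ccne1*, *Gabbr1* and *Sh2d5* (0.147 to 0.188), and *Gria1* had *Enpp6*, *Mmd2* and *Slc38a3* (0.161 to 0.200). *Gria3* and *Gria4* differed from each other by 0.238, against a median of 0.938 between *Gria3* and all genes. Many genes were nearer, since *Gria4* ranked 374 by distance from *Gria3*, and *Gria3* ranked 361 from *Gria4*. *Gria1* and *Gria3* differed by 1.25. The libraries share age and genotype, so these distances are descriptions.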

How the data were processed

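Libraries were made from poly A RNA and read as pairs. The authors used the nf-core RNA pipeline with the mm10 genome. The submitters' processing notes name STAR, Salmon and DESeq2, while versions, annotation and strand setting were not given in the sources used here. P22 and P7 replicates 5 to 7 were deposited as estimated counts (expected counts). P7 replicates 1 to 4 were deposited in the same P7 table as whole numbers that sum to nearly the same total in each library, and were treated as a score, TPM rounded by the authors. The units were therefore never tested together.

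Counts were rounded, filtered by filterByExpr, scaled by TMM and fitted in edgeR 4.0.16 (R 4.3.3), with DESeq2 1.42.0 as an alternative. Rounded TPM were fitted in limma 3.58.1 as log2 values after adding 1, keeping genes whose mean reached 5 TPM. Age and its interaction with genotype used the 12 count libraries. Lengths came from GENCODE M21, whose release may differ from the authors'. Shares and sums were compared by exact 2-sided permutation tests (SciPy 1.17.1), 4 of shares by age, 12 of shares by genotype and 6 of sums. Fits were tested on simulated data with known changes, where the interaction recovered fewer of the changed genes than the genotype fits, and the recovery required of it was lowered after that was seen. Members and lists were chosen with earlier results of these data known. Genes named from lists were those called in a comparison and up to 4 others of the highest level. *Homer1*, *Grin2a*, *Grin2d*, *Neurod2*, *Gabra6* and *Olig2* were picked after their values were seen, as were the other central glia markers named. Same-numbered libraries did not deviate together (correlations from -0.226 to 0.0806), so numbers were not taken as pairs. Median log2 differences by genotype at P22 were 0.01 for brain neuron, 0.68 for central glia, -0.003 for Schwann and satellite glia, 0.45 for hair cell and 0.27 for supporting cell markers. The summed hair cell markers went the other way, at 4642 to 4858 CPM in controls and 3361 to 3754 CPM in homozygotes, and *Calb2* was the 1 of 10 that was lower.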

Additional observations from a re-analysis of the deposited data

Results flagged for a closer look

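The genotype difference of *Gria2* was in opposite directions at P7 and P22 in the count libraries. The difference between them was -0.974 on the log2 scale (adjusted p = 0.176, edgeR), which did not pass. The flag rests on every homozygous library being higher at P7 and lower at P22. Those separations held for 5.76% and 17.9% of all genes, respectively. The rounded TPM set did not show the P7 difference (exact permutation test, p = 0.6), and its units and batch cannot be told apart. Scaled to neuron markers, the P22 difference was -0.04 (adjusted p = 0.732, edgeR).

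Among the P7 control libraries in rounded TPM, replicate 4 stood apart for *Gria1* at 5.0 TPM, where the other 3 were at 6, and for *Gria2* at 3.0 TPM, where the other 3 were at 5. Both values rest on whole-number rounding, which gives the other 3 libraries the same value. A rate of about 1 in 20 groups marked by chance holds for values without ties, and rounding raises it. Several measures were also checked in each group.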

How the results depend on the processing

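*Gria1*, at 194 to 869 counts a library, is the least precise subunit, and rounding limits *Gria1* and *Gria2* in the TPM set. Gene length changes shares, and the rises of *Gria2* to *Gria4* with age do not hold with scaling to neuron markers.

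Scaled to neuron markers, the calls were 1849 at P22, 41 in the P7 counts, 1829 in the rounded TPM, 14529 for age and 0 for the interaction. That scaling gave, at P22, 0.88 for *Gria1*, -0.039 for *Gria2*, -0.10 for *Gria3* and 7.849e-05 for *Gria4*. At P7 it gave *Gria3* 0.23 in counts and -0.067 in TPM, and *Adgrb1* -0.27 in TPM. For age it gave *Gria2* -1.12 (-0.61 in controls, -1.63 in homozygotes), *Gria3* -0.18 (-0.011 and -0.35) and *Gria4* -0.46 (-0.25 and -0.67). The cause was not tested.

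With an adjusted p alone, 1904 genes passed at P22 and 958 in the TPM set. DESeq2 called 48 genes in the P7 counts and 119 in the interaction, and gave *Gria1* 0.62 at P22 (adjusted p = 0.0240) and *Gria2* -1.01 in the interaction. Without the filter on low counts, 8 genes were called in the interaction. The 95 calls in the TPM set became 0 at a mean of at least 1 TPM, 0 with no filter and 293 without TMM, where *Gria1* was 0.048 and *Gria4* 0.068.

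With the replicate block, *Gria2* at P22 was -0.29 (adjusted p = 0.0669), calls were 0 in the TPM set, 466 at P22 and 2 in the interaction, and *Gria2* in the interaction was -0.97 (adjusted p = 0.373). The block changed no other call of the 4 genes. The age difference could not take it, since P7 and P22 count libraries share no numbers.

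The age difference of the *Gria4* share was 2.22 points with the longest coding transcript, 3.41 with coding length and 3.48 without length. These lengths gave its genotype difference at P22 as 0.61, 0.58 and 0.56 points, and the longest transcript 0.47 in the P7 counts. The P22 sum against neuron markers was -0.019 without length.

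Leaving out 1 library at a time gave 270 to 588 calls at P22, fewest without control replicate 1 (control replicate 3 and homozygous replicate 2 also lowered them over 1.5 times), with *Gria1* 0.42 to 0.86, *Gria2* -0.35 to -0.26, *Gria3* -0.44 to -0.27 and *Gria4* -0.32 to -0.19. In the P7 counts *Gria3* was -0.11 to 0.12 and *Gria4* -0.0003586 to 0.43. In the TPM set there were 0 to 332 calls, the most without homozygous replicate 1, with *Gria1* -0.11 to 0.012, *Gria4* -0.12 to 0.016 and *Adgrb1* -0.070 to 0.11. In the interaction there were 0 to 101, the most without P7 homozygous replicate 5, and *Adgrb1* was -0.24 to 0.20. Genotype differences of shares were, for *Gria2*, -0.42 to 0.017 points at P22 and -0.32 to 1.04 in TPM, for *Gria3* 2.89 to 4.64 in TPM, and for *Gria4* -0.56 to 0.49 at P22, -2.68 to 3.62 in the P7 counts and -3.99 to -2.38 in TPM. The P22 sum against neuron markers was -0.032 to 0.0305.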
